A study of Homo sapiens with 16 samples.

Results

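Transcripts of 3 receptors of the ERBB family and of 4 proteins that restrain them were followed for 45 h in MCF10HER2 cells that had been given CP724,714, an inhibitor of the HER2 kinase. The genes were EGFR, ERBB2 and ERBB3 for the receptors, and ERRFI1, LRIG1, CBL and CBLB for the restraining proteins. Every probe whose gene symbol in the deposited table equalled one of these 7 names was taken, which gave 12 probes of the 20589 in the table, and 7 of its 18190 symbols. Of the 12 probes, 10 passed the filter on detection and were tested. The brightest ERBB3 probe, 1 of the EGFR probes, ERRFI1 and LRIG1 rose over the time course by a straight line over all 16 arrays, as did 13.1% of all tested probes. ERRFI1 therefore moved upward, although a fall of this inducible inhibitor had been looked for when the genes were chosen. With a term for the groups of array background described below, 0 of the 10 lines were called, against 6.51% of all tested probes.

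MCF10HER2 cells derive from MCF10A, human breast epithelium that is immortal but not transformed, and stably carry an excess of HER2, the product of ERBB2. The cells grew in serum-free medium that held 10 ng/ml EGF, a ligand of EGFR, at every time point and no insulin. Parallel cultures received 1 µM CP724,714 in renewed medium, and RNA was taken every 3 h from 0 to 45 h on 1 array per time point. Only the culture of 0 h was untreated, against 15 treated ones, so the inhibitor, the change of medium and the time in culture cannot be told apart. No time point was replicated. Each p-value of a fit below sets a fitted change against the scatter of the arrays about the fit, which is not a spread of replicates. The fit was a curve, a line or the means of phases, which are runs of neighbouring time points. Permutation p-values compare the observed order of the arrays with shuffled orders. In RNA of a whole culture, a change in the RNA of each cell and a change in the mix of cell states cannot be told apart.

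ERBB receptors are tyrosine kinases of the cell surface that pair when a ligand binds. HER2 has no known ligand of its own and signals as the partner of the others, and ERBB3, whose own kinase is weak, recruits PI3 kinase once a partner has phosphorylated it. In breast epithelial cells ERBB3 is a FOXO target that PI3 kinase and AKT signaling holds down. ERRFI1 encodes MIG6, an inducible protein that binds the kinase domain of ERBB receptors and blocks it. LRIG1 is a membrane protein that lowers receptor levels, and CBL and CBLB are ubiquitin ligases that send active receptors to lysosomes.

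The windows of 250 bases before the start of transcription are shown for EGFR, ERRFI1 and LRIG1, which have a rising probe. They are RefSeq sequences of GRCh38.p14 in the direction of the gene, at chr7:55018767-55019016 on the plus strand for EGFR, chr1:8026310-8026559 on the minus strand for ERRFI1 and chr3:66501122-66501371 on the minus strand for LRIG1. ERBB3, which also has a rising probe, and CBL had no start in the source used here, so no letters were searched for them. Capitals mark matches, on either strand, to the GC box GGGCGG, the CCAAT box CCAAT and the letters TATATA.
EGFR: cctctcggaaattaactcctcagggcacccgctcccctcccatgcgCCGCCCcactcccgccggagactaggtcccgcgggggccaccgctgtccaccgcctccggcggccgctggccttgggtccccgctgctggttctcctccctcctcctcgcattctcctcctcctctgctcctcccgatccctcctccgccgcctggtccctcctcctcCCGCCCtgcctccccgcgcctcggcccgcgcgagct
ERRFI1: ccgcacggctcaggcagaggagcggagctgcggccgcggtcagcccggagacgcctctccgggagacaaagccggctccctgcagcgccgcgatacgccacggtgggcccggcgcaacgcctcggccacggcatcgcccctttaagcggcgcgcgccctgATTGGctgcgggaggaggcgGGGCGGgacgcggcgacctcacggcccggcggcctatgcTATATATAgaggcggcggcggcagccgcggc
LRIG1: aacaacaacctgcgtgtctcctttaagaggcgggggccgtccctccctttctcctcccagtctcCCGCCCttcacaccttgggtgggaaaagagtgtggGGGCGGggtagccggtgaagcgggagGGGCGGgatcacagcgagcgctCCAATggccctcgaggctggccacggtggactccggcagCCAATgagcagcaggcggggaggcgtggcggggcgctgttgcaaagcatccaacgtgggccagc
The EGFR window held 2 GC boxes, the ERRFI1 window 1 GC box, 1 CCAAT box and 2 overlapping TATATA matches, and the LRIG1 window 3 GC boxes and 2 CCAAT boxes. Of 35116 windows of this length, 42.6% held a GC box, 32.0% a CCAAT box and 3.73% the letters TATATA. The forkhead letters TGTTTAC (2.98% of windows), the AP-1 letters TGACTCA (4.2%) and TATAAA (10.7%) were searched too and were not among the letters of these 3 windows. The windows held 73.6% G and C for EGFR, 75.2% for ERRFI1 and 66.8% for LRIG1, against a median of 58.0% over all windows. EGFR had 2 starts in the table, LRIG1 4 and ERRFI1 1, and the most upstream was used. A match is a description of letters and not of a bound site.

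Signals are normalized log2 intensities, on which a probe at background had a median of 5.40 to 5.42 on each array. Between 10363 and 11436 probes were detected on an array, that is, had a detection p under 0.05 against the negative controls of that array. The arrays of 0 to 21 h had a background intensity of 136 to 149 and those of 24 to 45 h one of 164 to 174, so each run of 8 arrays forms a group, and the line within each group, as its change over those 21 h, is given beside that over all 16 arrays. The 9 h and 18 h arrays were dim, with an upper quartile of 397 and 418 against 553 to 804 on the other 14. The epithelial genes KRT5, KRT17, KRT18 and ITGB4 were detected on all 16 arrays and CDH1 on 15, whereas KRT14 was detected on 1 and LAMB3 on 2. A low count of detected arrays need not mean a low signal. The tested probe of RASA1, named after its values were seen, was detected on 3 arrays and had a mean signal of 9.91. The signals of KRT14 and LAMB3 are not given here. Over the time course KRT17 rose by 2.86 on the log2 scale (SE 0.31, limma adjusted p = 3.41e-06), ITGB4 rose by 1.45 (SE 0.29, adjusted p = 0.00121) and KRT5 fell by 0.47 (SE 0.12, adjusted p = 0.0078). ESR1, PGR, CDH5 and COL1A1 were not detected on any array, CD3E was detected on 1, COL3A1 on 2, PTPRC on 7 and GATA3 and PECAM1 on 16. The part that these marker changes play in the results below was not tested.

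The probes of EGFR and ERBB2 differed in detection. All 16 arrays detected 3 of the 4 EGFR probes, both ERBB3 probes and the single probes of ERRFI1, LRIG1, CBL and CBLB. The EGFR probe ILMN_26807 was detected on none, with detection p-values of 0.169 to 0.816. ERBB2, the gene that was introduced into these cells, had detection p-values of 0.00826 to 0.324 at the probe ILMN_28003 and of 0.0155 to 0.297 at ILMN_2680. The ILMN_28003 values were under 0.05 on 7 arrays and those of ILMN_2680 on 1, at 27 h. Whether the introduced copy of ERBB2 contains the sequences of these probes is not given in the sources used here.

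The p-values of ILMN_28003 and of the ERBB3 probe ILMN_6289 had another form than those of the other 10 probes. In 19085 rows of the table the detection p was a whole multiple of 1/708 on every array, to within 0.001 of a step. In the other 1504 rows, these probes among them, every p had the value that the sum of 2 such p-values would be given, to within 2e-07, as if the signals of 2 bead types stood in 1 row. Read in this way, the mean of the 2 p-values behind ILMN_28003 lay between 0.0643 and 0.403 and was under 0.05 on 0 arrays. Only the sum of the 2 can be recovered, so whether either bead type was detected by itself on the 7 arrays is not known. For ILMN_6289 the mean of the 2 p-values lay between 0.00636 and 0.0247 and was under 0.05 on all 16 arrays.

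**Figure D1:**
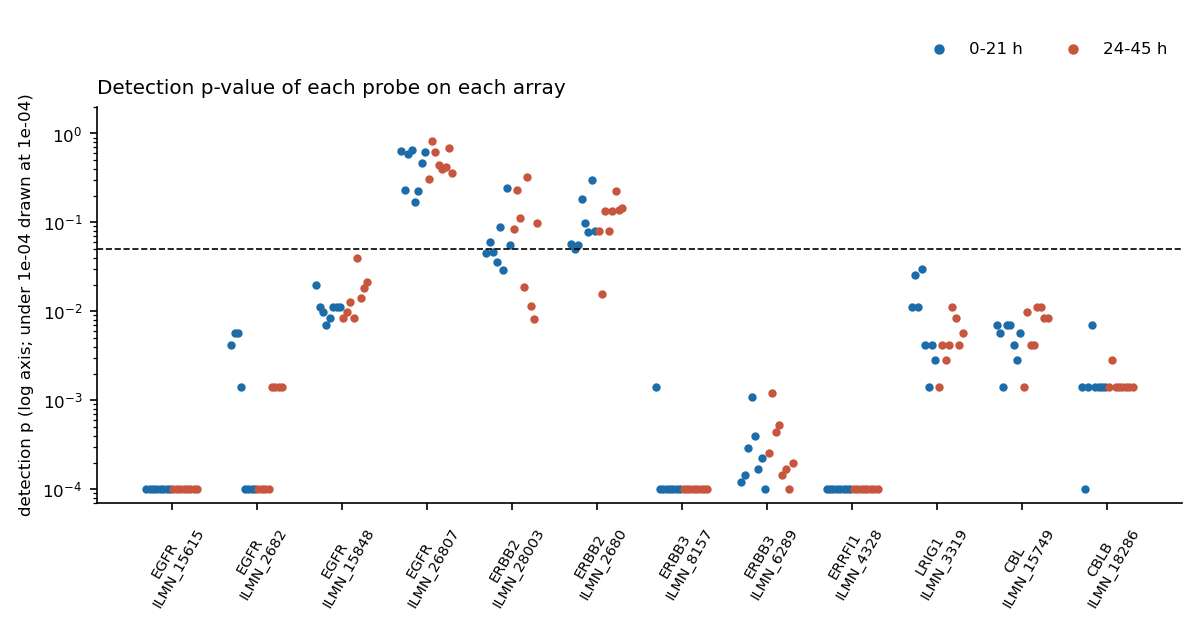
Detection p-value (log axis) of each of the 12 probes on each of the 16 arrays, with 0 to 21 h in blue and 24 to 45 h in red and the threshold of 0.05 as a dashed line. The EGFR probe ILMN_26807 lies above the line on every array, the ERBB2 probes lie about it, and the other 9 probes lie below it on all 16 arrays.

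A smooth curve in time was fitted to each probe first, and 7 of the 10 tested probes, of 5 genes, had an adjusted p under 0.05, called time-dependent here. Among all 12321 probes tested this held for 42.3%. These were ILMN_2682 and ILMN_15848 of EGFR, both ERBB3 probes, ERRFI1, LRIG1 and CBLB. A straight line in time gave 4 higher probes, against 13.1% of all tested, and 0 lower ones, against 11.3% of all. The 4 were LRIG1, ERBB3 ILMN_8157, EGFR ILMN_2682 and ERRFI1. The median linear change was 0.20 over the 10 probes and 0.00 over all tested probes, in log2 units over 45 h.

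**Figure D2:**
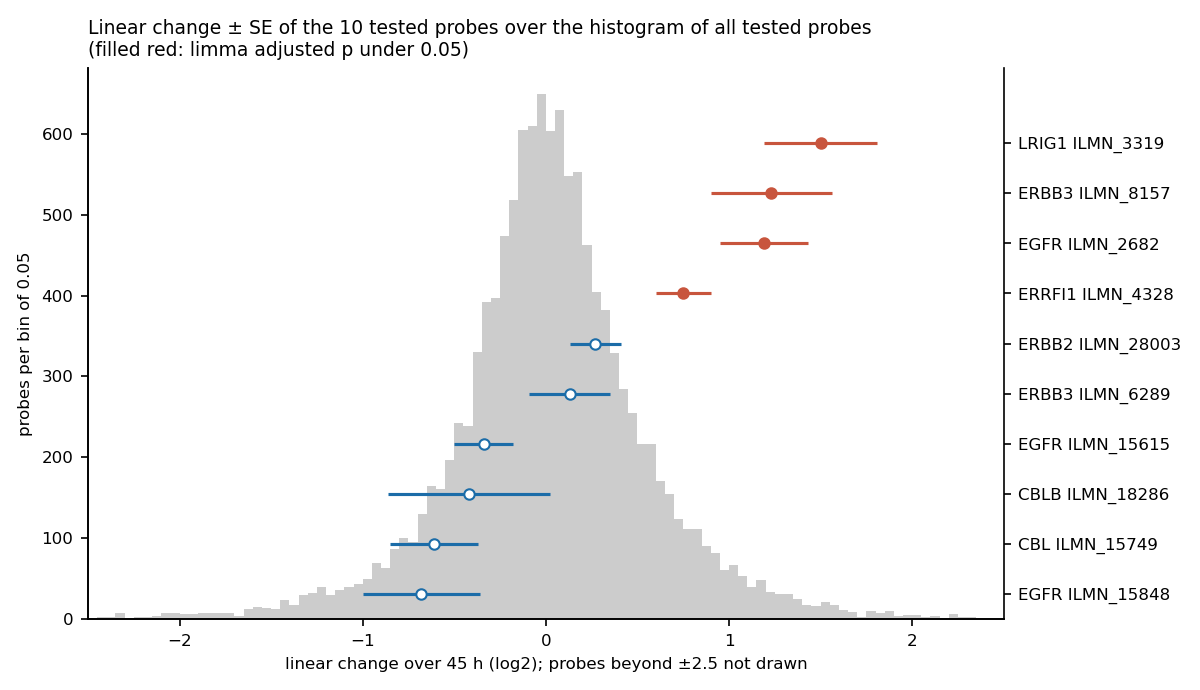
Linear change over 45 h (log2, points, with SE bars) of the 10 tested probes, drawn over the histogram of the 12321 tested probes in grey. LRIG1, ERBB3 ILMN_8157, EGFR ILMN_2682 and ERRFI1 lie at 1.50, 1.23, 1.19 and 0.75 and passed the threshold, and the other 6 lie between -0.68 and 0.27 and did not.

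EGFR, the receptor of the EGF in the medium, gave a course at ILMN_2682 that its other detected probes did not share. The signal of ILMN_2682 was 8.29, 8.35, 8.28 and 8.87 from 0 to 9 h and 9.27, 9.23, 9.39 and 9.27 from 12 to 21 h. It was 9.58, 9.64, 9.53 and 9.63 from 24 to 33 h and 9.35, 9.50, 9.50 and 9.35 from 36 to 45 h. The probe was thus low through 6 h, higher on every array from 12 h on, and highest on the arrays from 24 to 33 h. In unprocessed intensities it went from 454 at 0 h to 1148 at 33 h and 918 at 45 h.

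The signal of ILMN_2682 was above that of 0 h on 14 of 15 treated arrays and 2.09-fold above it at 45 h. The line rose by 1.19 over 45 h (SE 0.24, limma adjusted p = 0.00121, 95% interval 0.68 to 1.69), with a time dependence at an adjusted p of 2.84e-05. The step from the 6 to 9 h arrays to the 12 to 21 h arrays was 0.72 (SE 0.13, limma adjusted p = 0.000414), a rise from a mean of 8.57 to 9.29. Within the arrays of 0 to 21 h the line gave 1.28 (SE 0.27, adjusted p = 0.0199), and within those of 24 to 45 h it gave -0.22 (SE 0.12, adjusted p = 0.213). With the background group as a term in the fit the linear change was 1.13, at an adjusted p of 0.183, and with arrays weighted by their quality it was 0.46, at an adjusted p of 0.0621. The 12 to 21 h step was 0.42 (limma adjusted p = 0.0235) without the 6 h array.

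The brightest EGFR probe, ILMN_15615, had no rise of this kind. Its signal was 10.09, 10.36, 10.36 and 10.69 from 0 to 9 h and 10.26, 10.26, 10.08 and 9.92 from 12 to 21 h. From 24 to 45 h it was 10.49, 10.01, 10.09, 10.09, 10.01, 10.01, 10.17 and 10.00. The highest normalized value stood on the dim 9 h array, where the intensity of 1025 was below the 1267 of the 0 h array. The linear change was -0.34 (SE 0.16, adjusted p = 0.128, 95% interval -0.68 to 0.00), with -0.27 within 0 to 21 h (adjusted p = 0.49) and -0.25 within 24 to 45 h (0.222). The curve gave an adjusted p of 0.211. The curve passed the threshold with the background group in the fit, at an adjusted p of 0.0448, and without the 24 h array, at 0.018. The step from 6 to 9 h to 12 to 21 h was -0.40 (SE 0.14, limma adjusted p = 0.0353), and it was -0.23 without the 9 h array (adjusted p = 0.335), -0.38 without 18 h (0.0648), -0.33 without 21 h (0.095) and -0.11 under median scaling (0.682).

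The dimmer EGFR probe ILMN_15848 ran along with ILMN_15615, with a Pearson r of 0.73 over the 16 arrays, and not with ILMN_2682, where r was -0.06. These arrays share the normalization and the time axis. Its signal ranged from 6.09 at 36 h to 7.83 at 9 h, with 6.24 at 0 h and 6.21 at 45 h, so it ended where it began. It rose by 0.84 from 0 to 3 h to 6 to 9 h (SE 0.27, limma adjusted p = 0.0287) and fell by 0.76 from 24 to 33 h to 36 to 45 h (SE 0.19, adjusted p = 0.00989), where 6.77 to 7.20 came down to 6.09 to 6.47. The line gave 0.03 within 0 to 21 h (SE 0.47, adjusted p = 0.972) and within 24 to 45 h it gave -0.98 (SE 0.25, limma adjusted p = 0.0102). Like that of other dim probes, the size of the steps depends on the background correction: they were 0.41 and -0.34 with none, and 0.14 and -0.10 with negative controls inferred from all rows, each time past the threshold. The first of these steps was 0.43 without the 9 h array (adjusted p = 0.372) and 0.50 without the 0 h array (0.259). The linear change of -0.68 (SE 0.32, adjusted p = 0.14) became -1.06 without the 0 h array (adjusted p = 0.0147), and the curve, at an adjusted p of 0.0253, gave 0.0582 to 0.0868 without 3, 6, 9 or 12 h. The undetected probe ILMN_26807 stayed between 5.33 and 5.75.

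The difference between probes of a gene was tested itself, over 4 pairs. That probes of a receptor disagree was known when the genes were chosen, so these p-values only describe the difference. Permutation also treats the arrays as exchangeable, although neighbouring time points follow a shared course. ILMN_2682 lay 1.80 below ILMN_15615 at 0 h, a difference of -1.80, and the difference was -0.64 at 45 h. This difference moved by 1.53 over 45 h (two-sided permutation p = 5e-05, adjusted over the pairs 1e-04). Within 0 to 21 h it moved by 1.55 (exact permutation p = 0.00392, 8 arrays) and within 24 to 45 h by 0.03 (exact p = 0.888). Against ILMN_15848, the same probe gained 1.86 (permutation p = 2e-05, adjusted 8e-05), with 1.25 and 0.76 within the groups of arrays (exact p = 0.0647 and 0.0287). The pair ILMN_15848 and ILMN_15615 changed by -0.34 (permutation p = 0.246).

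ERBB2, the target of the inhibitor and the over expressed gene, stayed near the background at both probes. The signal of ILMN_28003 was 5.79 at its lowest, at 18 h, had a median of 6.21 and reached 6.42 at 39 h, with 6.05 at 0 h and 6.30 at 45 h. That of ILMN_2680 ran from 5.65 at 18 h to 6.39 at 27 h with a median of 5.89. A probe this close to background cannot show a fall, and only ILMN_28003 was tested. The line gave 0.27 (SE 0.14, adjusted p = 0.162, 95% interval -0.02 to 0.57), and with weighted arrays it was 0.48 (adjusted p = 0.0126). It was -0.29 within 0 to 21 h (adjusted p = 0.323) and 0.22 within 24 to 45 h (0.323). The change turned to -0.08 with the background group in the fit (adjusted p = 0.908).

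ERBB3 gave the largest step from 0 to 3 h to 6 to 9 h of the 10 tested probes. At ILMN_8157 the signal was 9.27, 10.53, 11.50 and 11.02 from 0 to 9 h. From 12 to 33 h it was 10.38, 10.94, 10.91, 10.70, 10.49, 11.08, 10.93 and 10.90, and from 36 to 45 h it was 11.43, 11.60, 11.61 and 11.48. The course was therefore a steep rise to 6 h, a lower level through 33 h that stayed above the start, and a late level close to that of 6 h. All 15 treated arrays lay above the 0 h array, by 2.15-fold at 12 h to 5.05-fold at 42 h. Such a run of 15 was seen in 12.8% of tested probes. In unprocessed intensities the probe went from 772 at 0 h to 2810 at 6 h and 3389 at 45 h.

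The linear change of ILMN_8157 was 1.23 (SE 0.33, limma adjusted p = 0.0113, 95% interval 0.51 to 1.95), and the curve gave an adjusted p of 0.00481. The 0 h array bore on the line, which gave 0.79 without it (adjusted p = 0.056). Within 0 to 21 h the line gave 0.80 (SE 0.54, adjusted p = 0.339), and within 24 to 45 h it gave 1.01 (SE 0.17, adjusted p = 0.000745). With the background group in the fit it was 1.94 (SE 0.67, adjusted p = 0.0894). Both rises of the course were larger than the scatter of the arrays. From 0 to 3 h to 6 to 9 h the mean went from 9.90 to 11.26, a step of 1.36 (SE 0.28, limma adjusted p = 0.00142), which was 0.73 without the 0 h array (adjusted p = 0.021) and 1.99 without the 3 h array (2.57e-06). From 24 to 33 h to 36 to 45 h the mean went from 10.85 (range 10.49 to 11.08) to 11.53 (11.43 to 11.61), a step of 0.68 (SE 0.20, adjusted p = 0.021). This late step missed the threshold without the 24 h array (0.56, adjusted p = 0.0811), the 39 h array (0.66, 0.0531) or the 42 h array (0.65, 0.0574). The decline between the rises was -0.53 (SE 0.24, adjusted p = 0.0996).

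The other ERBB3 row, ILMN_6289, did not have the early rise. Its signal was 7.66, 7.56, 7.27 and 7.31 from 0 to 9 h, 6.90, 6.97, 7.38 and 7.15 from 12 to 21 h, 6.86, 7.03, 7.18 and 7.31 from 24 to 33 h, and 7.56, 7.50, 7.69 and 7.45 from 36 to 45 h. Only the 42 h array lay above 0 h. The linear change was 0.13 (SE 0.22, adjusted p = 0.732, 95% interval -0.35 to 0.60), with -0.49 within 0 to 21 h (adjusted p = 0.263) and 0.72 within 24 to 45 h (0.00982). With weighted arrays the line over all 16 gave 0.72 too (adjusted p = 0.00694). The late step was 0.45 (SE 0.13, limma adjusted p = 0.0192), from a mean of 7.10 to 7.55, so the late rise was seen at both rows. It missed the threshold without the 24 h array (0.37, adjusted p = 0.0752), without 42 h (0.40, 0.0672) and under median scaling (0.39, 0.0752). Past the threshold but smaller, it was 0.23 with no background correction and 0.09 with negative controls inferred from all rows. The curve, at an adjusted p of 0.0326, gave 0.0511 to 0.0754 without 0, 3, 15, 24, 27, 39 or 42 h.

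The 2 rows correlated at 0.12 over the 16 arrays. ILMN_8157 exceeded ILMN_6289 by 1.61 at 0 h and by 4.03 at 45 h, and this difference grew by 1.10 over the time course (two-sided permutation p = 0.00908, adjusted over the 4 pairs 0.0121). Within 0 to 21 h it grew by 1.29 (exact permutation p = 0.141, 8 arrays) and within 24 to 45 h by 0.29 (exact p = 0.178). The limits given for the EGFR pairs hold for these p-values too.

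**Figure D3:**
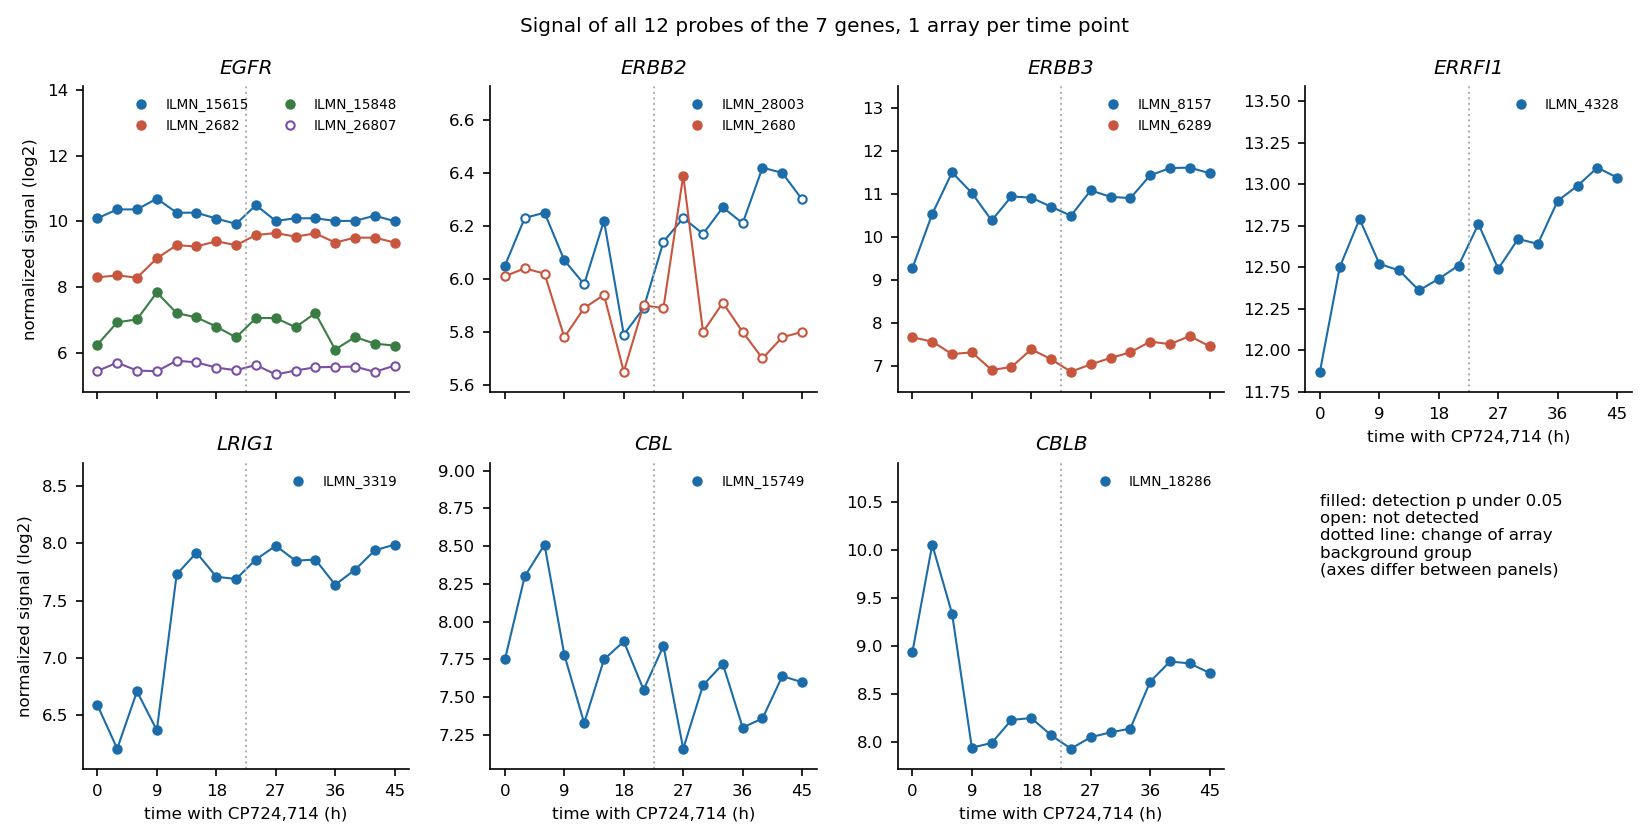
Normalized signal (log2) of all 12 probes against hours with CP724,714, 1 point per array, with filled points where detection p was under 0.05 and the dotted line where the array background changed. ERBB3 ILMN_8157 and ERRFI1 have a peak at 6 h and a late rise, EGFR ILMN_2682 and LRIG1 rise by 12 h, and CBLB peaks at 3 h. The axes differ between panels.

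Of the proteins that restrain the receptors, ERRFI1 had by far the brightest probe. Its signal was 11.87, 12.50, 12.79 and 12.52 from 0 to 9 h and 12.48, 12.36, 12.43 and 12.51 from 12 to 21 h. It was 12.76, 12.49, 12.67 and 12.64 from 24 to 33 h and 12.90, 12.99, 13.10 and 13.04 from 36 to 45 h. No treated array was as low as the 0 h array, a run of 15 that 12.8% of all tested probes had. The last 4 arrays were the 4 highest, and the share of all tested probes with such an order is not given here. The signal was 1.89-fold above 0 h at 6 h and 2.24-fold above it at 45 h. In unprocessed intensities, where the 9 h and 18 h arrays lay below it, the 0 h array had 4318 and the 45 h array 9420.

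ERRFI1 rose by 0.75 over the time course (SE 0.15, limma adjusted p = 0.00151, 95% interval 0.42 to 1.08), with a time dependence at an adjusted p of 0.0035. Within 0 to 21 h the line gave 0.23 (SE 0.24, adjusted p = 0.551) and within 24 to 45 h 0.52 (SE 0.12, adjusted p = 0.00494). With the background group in the fit the linear change was 0.80 (SE 0.32, adjusted p = 0.14) and the curve gave an adjusted p of 0.063. The mean went from 12.19 to 12.66 between the 0 to 3 h and 6 to 9 h arrays (0.47, SE 0.15, limma adjusted p = 0.0229), a step that was 0.15 without the 0 h array (adjusted p = 0.401), 0.33 without 6 h (0.163), 0.14 under median scaling (0.603) and 0.47 with weighted arrays (0.141), but 0.78 without 3 h (7.77e-05). The late mean went from 12.64 to 13.01 (0.37, SE 0.10, adjusted p = 0.0176), with ranges of 12.49 to 12.76 and 12.90 to 13.10. The late step was 0.32 without the 27 h array (adjusted p = 0.0603), 0.33 without 42 h (0.0596) and 0.25 under median scaling (0.217). ERRFI1 and ERBB3 ILMN_8157 ran together over the 16 arrays with r = 0.86, as 2 series that share arrays and a trend in time.

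LRIG1 stepped up between 9 and 12 h and then held its level. Its signal was 6.59, 6.21, 6.71 and 6.37 from 0 to 9 h and 7.73, 7.92, 7.71 and 7.69 from 12 to 21 h. From 24 to 45 h it was 7.86, 7.98, 7.85, 7.86, 7.64, 7.77, 7.94 and 7.99. The 4 arrays up to 9 h all lay below the 12 later ones. The share of all tested probes split in this way is not given here. In unprocessed intensities the probe was at 190 to 243 up to 9 h and at 263 to 476 afterwards.

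LRIG1 had a linear change of 1.50 (SE 0.31, limma adjusted p = 0.00171, 95% interval 0.83 to 2.18) and a time dependence at an adjusted p of 0.000365. The step from 6 to 9 h to 12 to 21 h was 1.22 (SE 0.15, limma adjusted p = 1.31e-05), 2.34-fold, from a mean of 6.54 to 7.76. Within 0 to 21 h the line gave 1.69 (SE 0.40, adjusted p = 0.0276) and within 24 to 45 h 0.02 (SE 0.17, adjusted p = 0.946), so the change lay within the first group of arrays. The fit with the background group gave 1.83 (SE 0.65, adjusted p = 0.0973), and weighted arrays gave 0.53 (adjusted p = 0.086). The probe is dim, and its size depends on the background correction: the step was 0.60 with none, and 0.22 with negative controls inferred from all rows of the table, each time past the threshold. LRIG1 and EGFR ILMN_2682 had r = 0.90 over the 16 arrays.

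CBL, the ubiquitin ligase that binds phosphorylated EGFR, had its highest signal early. The signal was 7.75, 8.30, 8.51 and 7.78 from 0 to 9 h, and from 12 to 45 h it lay between 7.16 and 7.87. Neither the curve (adjusted p = 0.208) nor the line (-0.61, SE 0.24, adjusted p = 0.0706, 95% interval -1.13 to -0.10) passed the threshold. The line gave -0.52 within 0 to 21 h (adjusted p = 0.365) and -0.03 within 24 to 45 h (0.934). Without the 12 h array the line gave -0.70 (adjusted p = 0.0321), and without the 0 h array the curve gave an adjusted p of 0.0346. The step from 6 to 9 h to 12 to 21 h was -0.52 (SE 0.22, adjusted p = 0.0809).

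CBLB, a close relative of CBL, was highest at 3 h, low from 9 to 33 h and higher again from 36 h. The signal was 8.94, 10.06, 9.34 and 7.94 from 0 to 9 h, then 7.93 to 8.25 through 33 h, and 8.63, 8.84, 8.82 and 8.72 from 36 to 45 h. The 3 h array was 2.18-fold above 0 h and the 24 h array 0.496 of it. The curve was time-dependent (adjusted p = 0.0144), and the line was not called (-0.42, SE 0.44, adjusted p = 0.538, 95% interval -1.36 to 0.52). That line rests on the 3 h array, and it turned to 0.07 without it (adjusted p = 0.926) and to 0.79 with weighted arrays (adjusted p = 0.0338). Within 24 to 45 h CBLB rose by 1.01 (SE 0.17, limma adjusted p = 0.00101), and within 0 to 21 h the line gave -1.54 (SE 0.53, adjusted p = 0.0804). The late step from a mean of 8.05 (range 7.93 to 8.14) to 8.75 (8.63 to 8.84) was 0.70 (SE 0.23, adjusted p = 0.0397). It was 0.66 to 0.74, at adjusted p-values of 0.0595 to 0.0992, without any 1 of the arrays from 24 to 45 h. It was 0.61 under median scaling (adjusted p = 0.0936), 0.48 with no background correction (0.0532) and 0.31 with negative controls inferred from all rows (0.188).

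Set side by side, the called steps fell in different phases, and a difference in timing between probes was not tested. From 0 to 3 h to 6 to 9 h, 3 probes rose (13.7% of all tested) and 0 fell (13.0%). From 6 to 9 h to 12 to 21 h, 2 rose (17.7%) and 1 fell (17.6%). From 12 to 21 h to 24 to 33 h, the step that crosses the background groups, 0 of the 10 probes were called in limma, against 0.414% of all tested, and ILMN_2682 of EGFR had the largest value (0.30, SE 0.11, adjusted p = 0.236). From 24 to 33 h to 36 to 45 h, 4 rose (10.1%) and 1 fell (10.1%). Within 24 to 45 h the line was higher for ERBB3 at both rows, ERRFI1 and CBLB (12.3% of all tested) and lower for EGFR ILMN_15848 (13.0%). Within 0 to 21 h it was higher for EGFR ILMN_2682 and LRIG1 (6.05%) and lower for 0 probes (5.54%). With the background group in the fit 0 probes had a called line (6.51%) and 7 a called curve (29.5%).

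**Figure D4:**
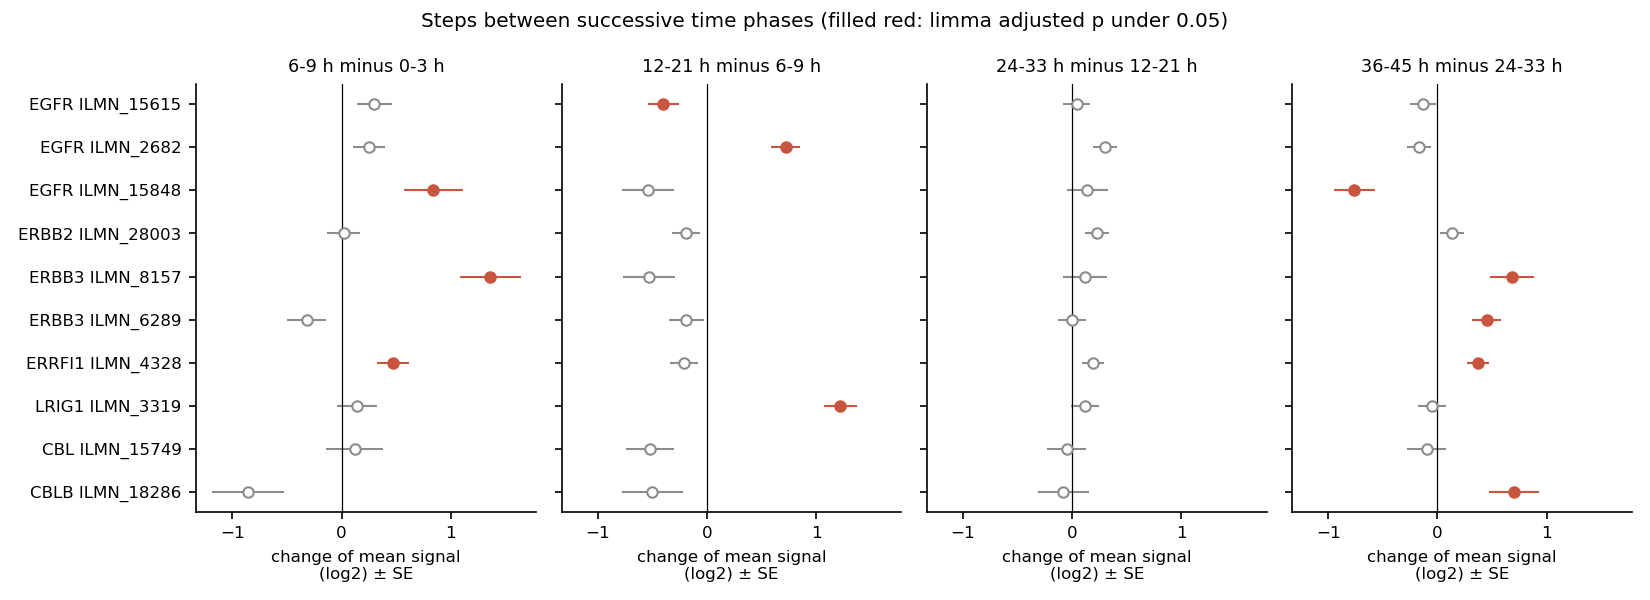
Change of mean signal (log2, with SE bars) between successive phases of the time course for the 10 tested probes, with filled red points where the limma adjusted p was under 0.05. ERBB3 ILMN_8157 and ERRFI1 are called in the 6 to 9 h and 36 to 45 h panels, and EGFR ILMN_2682 and LRIG1 in the 12 to 21 h panel.

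By the criterion of a 1.7-fold change against 0 h, which has no error term, 6 of the 10 tested probes were higher on 1 or more arrays, against 24.6% of all tested. They were EGFR ILMN_2682 on 12 arrays, EGFR ILMN_15848 on 7, ERBB3 ILMN_8157 on 15, ERRFI1 on 7, LRIG1 on 12 and CBLB on 1. CBLB was also lower by this factor on 7 arrays and ERBB3 ILMN_6289 on 1, against 22.9% of all tested, so 7 probes met it in either direction (45.0% of all tested).

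The proteins that carry the signal from these receptors were taken as a list of 38 adaptors, RAS and RAF proteins, kinases and PI3 kinase subunits, with 1 probe per gene. Of the 34 tested, 19 were time-dependent (55.9%, beside 42.3% of all tested probes). A higher line was called for 6 (13.1% of all tested) and a lower line for 7 (11.3%), and the median change was -0.16, beside 0.00 over all. The line of MAPK3, the kinase ERK1, rose by 1.54 (SE 0.29, limma adjusted p = 0.000754), with a signal of 11.42 at 0 h and 12.89 at 45 h. That of NRAS, a RAS GTPase, fell by 1.32 (SE 0.26, adjusted p = 0.000958), with a signal of 8.70 at 0 h and 8.17 at 45 h. ERBB4, the remaining receptor of the family, was not detected on any array.

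Of 24 proteins of receptor ubiquitination and endosomal sorting, all tested, 8 were time-dependent (33.3%, beside 42.3% of all tested probes). A higher line was called for 4 (13.1% of all tested) and a lower line for 3 (11.3%), and the median change was -0.12, beside 0.00 over all. The line of SH3KBP1, an adaptor that links CBL to endocytosis, fell by 1.31 (SE 0.20, limma adjusted p = 0.000109), with a signal of 12.69 at 0 h and 11.74 at 45 h. That of RAB11A, a GTPase of receptor recycling, rose by 0.99 (SE 0.13, adjusted p = 2.68e-05), with a signal of 11.68 at 0 h and 12.64 at 45 h. Chosen after the values were seen, the other called lines were higher for TSG101, AP2A1 and STUB1 and lower for UBASH3B and CLTC. CBLC, the epithelial relative of CBL and CBLB and also named after its values were seen, had a line of 1.01 (SE 0.41, adjusted p = 0.08) and a time-dependent curve (adjusted p = 0.000849).

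Of 11 other negative regulators, all tested, 0 had a called line in limma (13.1% of all tested were higher and 11.3% lower) and 2 had a time-dependent curve (18.2%, beside 42.3% of all tested). These were PTPRK, a receptor phosphatase, and CAV1, the coat protein of caveolae, named after their values were seen, and the median change of the list was -0.33. Of 21 other receptor tyrosine kinases, 14 were tested, 6 were never detected, and 8 were time-dependent (57.1%, beside 42.3% of all tested). A higher line was called for 3 (13.1% of all tested) and a lower line for 0 (11.3%), with a median change of 0.08. MST1R, the receptor RON, rose by 0.89 (SE 0.29, limma adjusted p = 0.0295) and PTK7, a pseudokinase, rose by 0.85 (SE 0.23, adjusted p = 0.0103). The third was RYK, another pseudokinase, at 0.56 (SE 0.11, adjusted p = 0.0012), which was named after its value was seen.

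**Figure D5:**
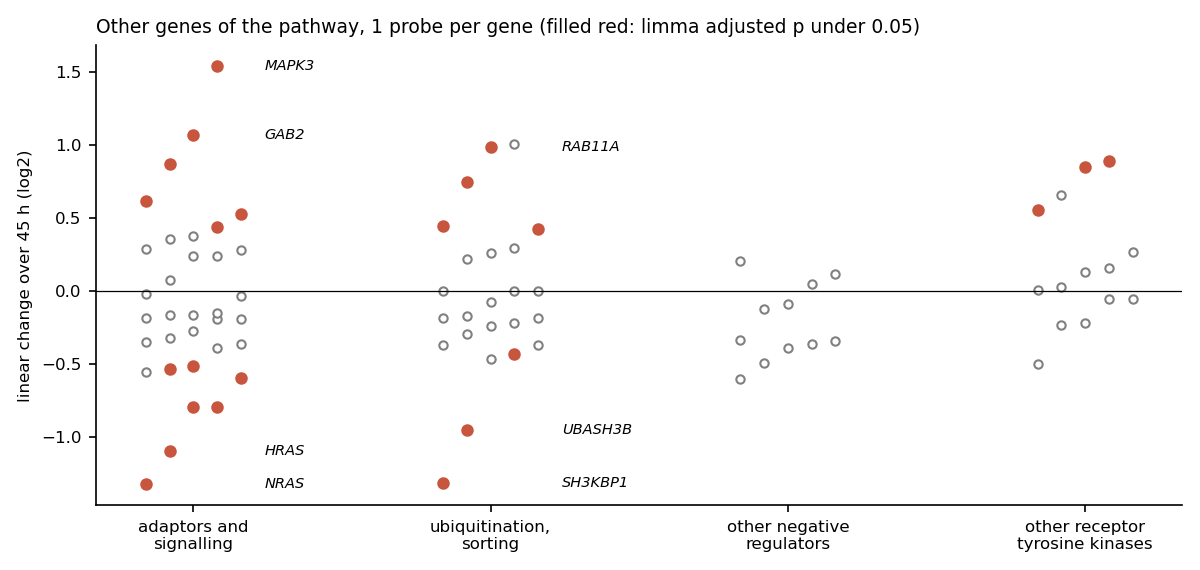
Linear change over 45 h (log2) of each tested gene of the 4 lists, 1 probe per gene, with filled red points where the limma adjusted p was under 0.05. The called genes beyond 0.9 in either direction carry their names, and none of the 11 other negative regulators is called.

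The probes whose course was most like each gene were found by Pearson r over the 16 arrays among the tested probes of other genes, 12318 for EGFR, 12319 for ERBB3 and 12320 for ERRFI1 and LRIG1. For ERBB3 ILMN_8157 these were RGC32 (r = 0.972), MOAP1 (0.951), GAB2 (0.940), PCMTD1 (0.937) and MGC3121 (0.934). GAB2 is an adaptor that binds PI3 kinase. For ERRFI1 they were FAM54B (0.942), PCGF2 (0.934), FAM8A1 (0.932), ADCY9 (0.927) and PKP2 (0.926). LRIG1 was most like MYB (0.968), a transcription factor of progenitor cells, then MRPS21 (0.962), a pair of SYT15 probes (0.960 and 0.957) and PPIL3 (0.957). For EGFR ILMN_15615 the closest were lower, with LCP1 (0.895), P4HA2 (0.875), PSME4 (0.874), DHX36 (0.859) and DOCK5 (0.855). These values describe 16 arrays of 1 time course, which share their trend.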

How the data were processed

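The samples were 16 cultures of MCF10HER2 cells, taken every 3 h from 0 to 45 h, with 1 array each. The study's methods name the arrays as Illumina human Ref-8 v2 beadchips. The authors deposited the non-normalized intensity of each probe on each array, with no background subtraction apparent from the values. They also deposited a p-value of detection for each, relative to the negative control beads of the same array. The scanner software is not given in the sources used here.

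Background was corrected by the normexp model of neqc in limma 3.58.1 (R 4.3.3), with an offset of 16, followed by quantile normalization and log2. The mean and SD of the negative controls were inferred from the detection p-values of the 19085 rows in which these are whole steps of 1/708. The other 1504 rows, 867 of them among those tested, appear to combine 2 bead types, and with them the inferred SD was 212 to 491 in place of 23.9 to 48.4. That restriction was chosen after the data were seen, and inference from all rows was kept as an alternative. The tests took the 12321 probes (59.8%) that 3 or more arrays detected at a p under 0.05. A larger offset gave smaller changes of dim probes, and so did leaving out the background correction. The LRIG1 step from 6 to 9 h to 12 to 21 h was 1.22 here, 0.98 with an offset of 50 and 0.60 with no correction.

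In limma, lmFit and eBayes (mean-variance trend on) fitted each probe with a natural cubic spline over the hours (4 degrees of freedom), with a straight line given as log2 change over 45 h, and with steps between the means of time phases of 2, 2, 4, 4 and 4 arrays. P-values were adjusted by the Benjamini-Hochberg procedure over all tested probes, with a threshold of 0.05. The study names a 1.7-fold threshold, and 0 h was taken as its baseline here. Differences between probes of a gene were tested with 100000 permutations of the arrays, for which 1e-05 is the smallest p, and with all 40320 orders within each 8 arrays. The fits were tested on simulated data. Named were all probes of the 7 genes, the 2 largest linear changes called by both fits in each list, and for 4 genes the 5 probes with the highest r. The genes, the phases and the lists were chosen with earlier results of these data known. Probe sequences were not used here, and symbols are those of the table. The alternatives covered background correction, offset, normalization, detection filter, array weights, the dim arrays, the spline, the background groups and each array left out in turn.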

Additional observations from a re-analysis of the deposited data

How the results depend on the processing

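No paired analysis was possible because a time point is a single array with no replicate number. Of 854 values of single probes under an alternative, 775 kept their side of the threshold and, for lines and steps, their direction. Of the others, 60 lost a call, 11 gained one and 8 reversed. Curves have no direction that could reverse, and a value called in neither fit counts as kept. Fits that leave out 1 array share most of their arrays. ERBB3 ILMN_8157 (6 to 9 h step), EGFR ILMN_2682 and LRIG1 (12 to 21 h steps) kept their call in the 26 alternatives to which a step was fitted. Leaving out 1 array at a time gave 5 to 7 time-dependent probes of the 10 (4131 to 5896 of all tested), 3 to 4 higher and 0 to 1 lower lines (all tested 1370 to 1687 higher and 1170 to 1457 lower), and 2 to 4, 2 to 4, 0 to 0 and 1 to 5 called probes in the steps in order of time (14.0 to 30.3%, 24.1 to 39.6%, 0.0487 to 1.34% and 13.6 to 25.3% of all tested). Median scaling left 2 called probes at the 36 to 45 h step (12.8% of all tested). It gave 1646 higher and 953 lower lines over all tested in place of 1613 and 1389. Median scaling over the tested probes, chosen after the data were seen, shifted the median of all tested probes by -0.12 and gave 1194 higher and 1799 lower lines. Negative controls inferred from all rows, also chosen after the data were seen, gave 5 called probes at the 12 to 21 h step (34.7% of all tested, beside 3 and 35.3%). They gave linear changes of 0.28 for LRIG1, 0.81 for EGFR ILMN_2682, 1.33 for ERBB3 ILMN_8157 and 0.77 for ERRFI1. Array weights gave 2246 lower lines over all tested, 1 lower line among the 10, 1 called probe at the 6 to 9 h step (7.65% of all tested) and 1 at the 24 to 33 h step (3.88%), and turned CBLB to 0.79. The background group as a block gave 418 higher and 384 lower lines over all tested and 0 higher lines among the 10, and turned ERBB2 ILMN_28003 to -0.08. The arrays of 0 to 21 h alone, scaled to 45 h, gave 745 higher and 683 lower lines and 2 higher among the 10, and turned EGFR ILMN_15848 to 0.07, ERBB2 ILMN_28003 to -0.63 and ERBB3 ILMN_6289 to -1.05. Those of 24 to 45 h alone gave 1 lower line among the 10, and turned EGFR ILMN_2682 to -0.48 and CBLB to 2.16. For CBLB the line ran from -0.60 to 0.07 with 1 array left out, the latter without the 3 h array. A 2-fold threshold left 3317 of all tested probes in place of 5546. The causes of these shifts were not tested. Signal over background limits the ERBB2 probes and EGFR ILMN_26807.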
